A study of Caenorhabditis elegans with 83 samples.

Results

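The regions described here are SMC-3 ChIP-seq peaks of the Caenorhabditis elegans strain HW04 that carry an auxin label and have no counterpart in the files labelled no auxin. Members were the peaks of the list labelled 1 h auxin, replicate 1, that were overlapped by at least 1 bp by a peak of replicate 2 of that label and by no peak of either list labelled no auxin. They numbered 1984 of the 7457 peaks in the replicate 1 list, or 26.6%. As a comparison, 2826 peaks (37.9%) were overlapped by replicate 2 and by both lists labelled no auxin, and are called shared regions. Another 1106 peaks (14.8%) had a counterpart in 1 of the lists labelled no auxin, and 1541 (20.7%) had none in replicate 2.

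SMC-3 is a core subunit of the cohesin ring, which holds DNA and extrudes chromatin loops. PQN-85 (now named SCC-2) is the worm NIPBL-type protein that loads cohesin onto chromatin, and WAPL-1 takes cohesin off. H4K20me1 is a histone mark that the dosage compensation machinery enriches on the X chromosomes of hermaphrodites.

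All animals were whole worms at the L2/L3 stage, hatched without food and then grown for 24 h at 22 °C. HW04 worms were placed on plates with auxin for 1 h or on plates without it, and SMC-3, PQN-85 and H4K20me1 each had 2 libraries with auxin and 2 without. The protein that auxin removes in HW04, its degron allele and the promoter of the auxin receptor are not given in the sources used here. The SMC-3 and PQN-85 groups of the other strains all had 1 h of auxin, with JK06 for WAPL-1 depletion, JK05 for SMC-3 depletion and CA1200 as their control, so an effect of auxin itself is shared by those groups. For each of these strains and antibodies the authors made 1 combined peak set over replicate libraries, which leaves no replicate error. RNA-seq covered CA1200, JK05 and JK06 after 4 h of auxin, and no RNA table of HW04 was used. Read depth is unknown, since the peak lists hold no counts. Each peak has the authors' score, which is 10 times −log10 of its q value, and the fold enrichment of ChIP over input at its summit.

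The auxin condition of the 4 SMC-3 lists of HW04 is in doubt. Peak names inside both lists labelled 1 h auxin state no auxin, with extracts 782 and 783 and inputs HW58 and HW59, and these are the extracts and inputs named in the PQN-85 and H4K20me1 lists labelled no auxin. In the SMC-3 lists without the auxin label the peak names read auxin instead, with extract 784 in both and inputs HW68 and HW69, while the PQN-85 and H4K20me1 lists labelled auxin name extracts 784 and 785 with the same inputs. In the PQN-85 and H4K20me1 lists the peak names and the labels give the same condition. The labels are kept below, so by their peak names the members are sites called without auxin and not with it. When the rule was instead applied to the condition in the peak names, only 29 regions were called in both lists named auxin and in neither list named no auxin. The SMC-3 lists labelled auxin held 7457 and 8196 peaks, against 4305 and 4091 in those labelled no auxin. The part of these lengths in the counts of members was not tested. Since both SMC-3 lists labelled no auxin name 1 extract, they may be 2 libraries of 1 chromatin sample, and with 1 or the other left out the rule gave 2531 and 2543 members. With 1 of the lists labelled auxin left out it gave 3329 and 3794.

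Members were mostly weak peaks. Members were selected on the peak calls of these 4 lists, so scores and folds from them are a description with no test. The median member had a score of 61 (range 13 to 682) and a fold enrichment of 1.80 in replicate 1, against a score of 223 (range 18 to 2072) and a fold enrichment of 2.53 at the median shared region. Median widths were 509 bp for members and 636.5 bp for shared regions. Of the 746 highest-scoring peaks of the list, 6 were members and 732 were shared regions. The summits of members lay a median of 73 bp from the replicate 2 summit, and those of shared regions 27 bp.

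The gap from a member to the nearest peak labelled no auxin had a median of 2660 bp. It was over 5 kb for 626 members (31.6%) and under 100 bp for 10 (0.504%). The members nearest to the threshold lay 8 bp from such a peak on chromosome IV, from 7392109 to 7394309 upstream of pitr-1, and 19 and 21 bp from one on chromosome III near Y48G9A.7 and R05D3.9. The peaks just past it overlapped a peak labelled no auxin by 4 bp within dnj-20, by 11 bp near acs-13 and by 34 bp near Y50D7A.10. No build is stated for the HW04 files. Coordinates are those of the peak lists.

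The PQN-85 calls at members differed widely between libraries with and without auxin, in the direction of fewer with auxin. A PQN-85 peak overlapped 15.1% and 4.28% of members in the 2 auxin libraries, against 46.2% and 75.3% in the 2 libraries without auxin. Both auxin libraries stood below both libraries without auxin. The means were 9.68% ± 7.63 with auxin and 60.7% ± 20.6 without (SD, n = 2 each), a difference of −51.0 percentage points (two-sided exact permutation p = 0.333, the smallest that 2 against 2 libraries allow). Over all peaks of the replicate 1 list the shares were 33.9% and 10.8% with auxin and 60% and 74.5% without. In bulk ChIP of whole worms, binding in fewer cells and weaker binding per cell cannot be told apart.

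The lengths of the PQN-85 lists moved with this difference. They held 4070 and 1296 peaks with auxin and 6553 and 12367 without. With the 1296 highest-scoring peaks of each list, PQN-85 overlapped 3.23% and 4.28% of members with auxin against 3.18% and 3.78% without, a difference of 0.277 percentage points (two-sided exact permutation p = 0.667). These cuts reached down to scores of 161 and 13 with auxin, where 13 is the lowest score of the shorter list, and to 263 and 621 without, so they do not hold peaks of like strength and leave few members to compare. The PQN-85 lists without auxin also share their named extracts and inputs with the SMC-3 lists labelled auxin, in which members had to be called. Those with auxin share inputs HW68 and HW69, and in replicate 1 extract 784, with the SMC-3 lists labelled no auxin. Members had to be absent from these SMC-3 lists. Both sides of the PQN-85 difference are thus tied to the rule, and the part of this in the shares was not tested.

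Shared regions had more PQN-85 in every library. Its peaks overlapped 60.1% and 18.7% of shared regions with auxin, against 86.9% and 93.6% without. The difference was −50.9 percentage points there, and that of members minus that of shared regions came to −0.149 points (two-sided exact permutation p = 1.0). This value was not stable, at −15.5 to 15.2 with 1 library left out. As a ratio, the members' share divided by that of shared regions was −1.995 and −2.13 on the log2 scale with auxin and −0.91 and −0.31 without. This scale was chosen after the shares were seen, and the difference of −1.45 had an exact permutation p of 0.333. In PQN-85's strongest 1296 peaks, shared regions stood at 25% and 18.7% with auxin against 36.7% and 34.6% without.

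**Figure D1:**
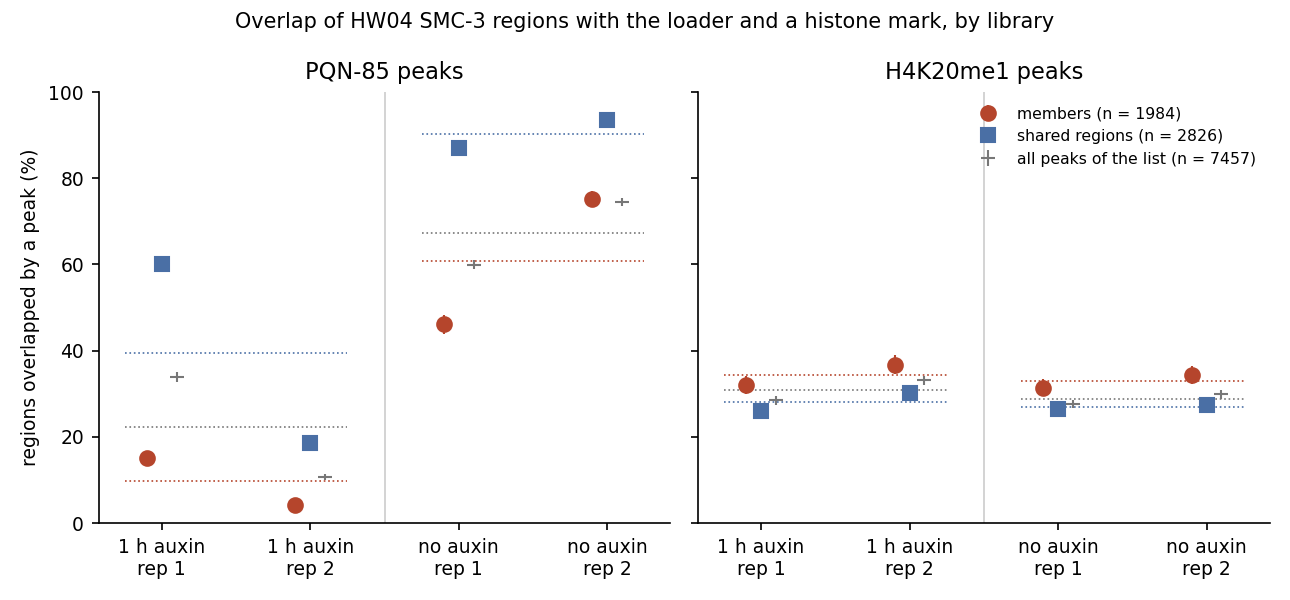
Share of HW04 SMC-3 regions (percent, y axis) overlapped by a PQN-85 peak (left) or an H4K20me1 peak (right) in each library (x axis), with exact 95% intervals over regions and dotted lines at the mean of each pair. PQN-85 overlapped 15.1% and 4.28% of members with auxin and 46.2% and 75.3% without, below the shared regions in each of the 4 libraries, while H4K20me1 stayed between 31.5% and 36.8% of members.

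Single members fell into a few patterns of PQN-85 calls. Of the 1984 members, 615 (31.0%, against 25.2% of all peaks of the list) had PQN-85 in both libraries without auxin and in neither with auxin. A further 579 (29.2%, against 15.8% of all peaks) had it in replicate 2 without auxin alone, the longest of the 4 lists, 448 (22.6%, against 22.4% of all peaks) in none, and 75 (3.78%, against 10.1%) in all 4. PQN-85 in an auxin library without any call in the libraries without auxin occurred at 1 member (0.0504%), in auxin replicate 1 alone. Of all peaks, 13 (0.174%) had this pattern in auxin replicate 1 alone, 2 (0.0268%) in auxin replicate 2 alone and 2 (0.0268%) in both.

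Among the members with PQN-85 in both libraries without auxin only, the highest-scoring one lay on chromosome II from 12035985 to 12039015, with its summit 12 bp upstream of the start of cyn-16, a cyclophilin gene. Its SMC-3 fold enrichment was 4.33 and 3.34 in replicates 1 and 2 labelled auxin, and its PQN-85 fold enrichment was 1.98 and 2.34 without auxin. The next was on the X chromosome from 10566591 to 10567228, 2148 bp upstream of bet-2, which encodes a bromodomain protein. SMC-3 was enriched 3.85-fold and 2.63-fold there in the lists labelled auxin, and PQN-85 2.22-fold and 1.77-fold without auxin. The third lay on chromosome III from 13562514 to 13563970, 150 bp upstream of T05D4.2. SMC-3 was enriched 3.05-fold and 3.28-fold there, and PQN-85 1.53-fold and 2.36-fold without auxin.

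The highest-scoring members with PQN-85 in all 4 libraries had SMC-3 scores of 154 to 174, below those just described. The first lay on chromosome V from 11616187 to 11617412 inside glb-15, a globin-family gene, with nlp-24, a neuropeptide-like gene, as the nearest start. SMC-3 stood at 2.47-fold and 1.96-fold in the lists labelled auxin, and PQN-85 at 4.16-fold and 1.68-fold with auxin against 2.17-fold and 2.86-fold without. On X from 17063275 to 17064307, inside C30G4.4, PQN-85 stood at 3.11-fold and 2.92-fold with auxin against 4.46-fold and 5.70-fold without. The third, on chromosome V from 12634385 to 12635491 near F56H9.2, had PQN-85 at 3.16-fold and 2.15-fold with auxin against 2.52-fold and 4.46-fold without. Both auxin values lay below both values without auxin at the X site, and the groups overlapped at the other sites.

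Members without any HW04 PQN-85 peak included strong SMC-3 sites. On chromosome IV from 10814507 to 10815131, inside miz-1, SMC-3 was enriched 3.29-fold and 2.90-fold in the lists labelled auxin, 2.29-fold in the combined WAPL-1 depletion set and 2.26-fold in the control set. On chromosome IV from 8790018 to 8791154, 444 bp upstream of the chemoreceptor gene sru-35 and inside C33D9.3, the values were 3.23-fold and 1.59-fold, with 1.77-fold in WAPL-1 depletion and 2.60-fold in the control. On chromosome III from 5567143 to 5568421 near nspb-12 they were 3.22-fold and 2.19-fold, with 1.82-fold in WAPL-1 depletion and 2.96-fold in the control. All 3 sites were thus called in both other strains.

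Most members were also SMC-3 sites of the control strain. A control (CA1200) SMC-3 peak overlapped 1197 members (60.3%, exact Clopper-Pearson 95% interval 58.1 to 62.5), against 93.8% of shared regions (92.9 to 94.7) and 68.6% of all peaks of the list. These intervals cover counting error over regions only, and the combined sets allow no test between conditions. The share of members depended on their score. It was 44.9% below a score of 50, 62.1% from 50 to 100, 78.7% from 100 to 200 and 97.2% from 200 upwards, against 73.3%, 78.1%, 93.2% and 98.6% of shared regions in the same bands. When only peaks with a score of at least 100 entered the rule, so that members could have a weaker peak in the lists labelled no auxin, 90.9% of 920 members had a control SMC-3 peak.

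The highest-scoring members without a control SMC-3 peak lay in gene bodies or far from a gene start. They were on chromosome III from 10324911 to 10325871 inside sas-7, a centriole assembly gene, on chromosome IV from 9220178 to 9220963 near C46C2.2, and on chromosome I from 10226256 to 10227508 inside ced-12, a gene for the engulfment of dying cells. Their SMC-3 fold enrichment in the lists labelled auxin was 2.66 and 1.43 at sas-7, 2.67 and 2.22 at C46C2.2, and 2.56 and 1.73 at ced-12. Each was called in the combined SMC-3 set of WAPL-1 depletion, at 1.60-fold, 1.74-fold and 1.83-fold.

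SMC-3 peaks of the WAPL-1 depletion strain were found at fewer members than those of the control. The combined set overlapped 634 members (32.0%, 29.9 to 34.1), against 91.9% of shared regions (90.8 to 92.8) and 57.9% of all peaks of the list. The single lists of replicates 3 and 4 overlapped 45.6% and 32.6% of members, against 67.6% and 59% of all peaks of the list. The sets had like lengths, 6107 peaks in WAPL-1 depletion and 6290 in the control. Their peak names list libraries JK167, JK185, HW47 and HW49 for WAPL-1 depletion but only JK165 and JK166 for the control. Median scores of the sets were 283 and 220. The part of these differences in the shares was not tested. By position the overlap covered 53.4% of members within 500 bp of a gene start and 15.4% of members in gene bodies in WAPL-1 depletion, while the control set overlapped 63.3% and 55.8%. With 1 combined set per strain these differences have no test. Shared regions had 96.6% and 84.9% in WAPL-1 depletion and 92.6% and 94.0% in the control. With the score limit of 100 in the rule, 71.6% of members had a WAPL-1 depletion peak.

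After SMC-3 depletion 4 members (0.202%, 0.0550 to 0.515) were overlapped by 1 of the 361 SMC-3 peaks left, against 8.03% of shared regions and 4.25% of all peaks of the list. The share was 0.132% and 0.781% without SMC-3 replicate 1 or 2 labelled auxin, and 0.593% without replicate 1 labelled no auxin.

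PQN-85 sets of the other strains repeated the order of the classes. In WAPL-1 depletion the combined set covered 44.0% of members against 88.5% of shared regions (59.3% of all peaks), and in SMC-3 depletion 25.7% against 81.0% (46.8% of all peaks). The longer list called on averaged WAPL-1 depletion libraries covered 65.4% of members and 97.1% of shared regions (74.4% of all peaks). A control PQN-85 peak lay at 702 members (35.4%, 33.3 to 37.5), against 78.8% of shared regions (77.3 to 80.3) and 49.6% of all peaks of the list. With the score limit of 100 in the rule, 60.9% of members had a control PQN-85 peak.

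**Figure D2:**
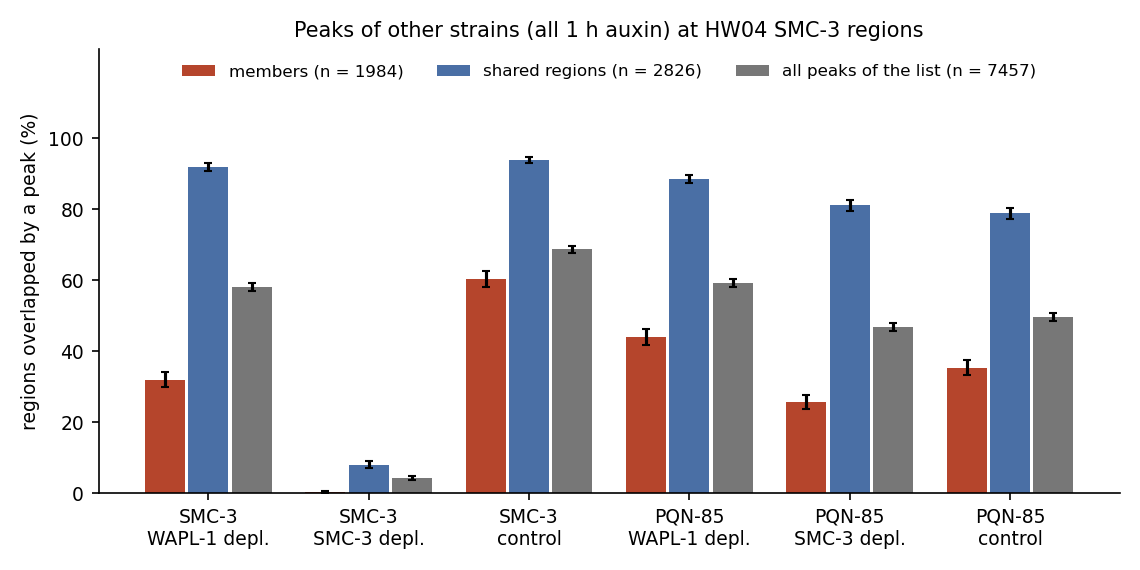
Share of members, shared regions and all peaks of the replicate 1 list (percent, y axis) overlapped by the combined SMC-3 and PQN-85 peak sets of the other strains (x axis), with exact 95% intervals over regions. Members are lowest in each of the 6 sets, from 0.202% in the SMC-3 depletion SMC-3 set to 60.3% in the control SMC-3 set.

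Members and shared regions of like score still differed in several measures. Among regions with a score of 100 to 200, PQN-85 of auxin replicate 1 overlapped 16.8% of 357 members and 49.1% of 829 shared regions, and PQN-85 of replicate 2 without auxin overlapped 70.9% and 90.7%. In that band 47.6% of members and 87.9% of shared regions had a WAPL-1 depletion SMC-3 peak, 25.8% and 42.9% lay within 500 bp of a gene start, and 26.6% and 14.2% lay on X. The bands were chosen after the data were seen and carry no test.

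**Figure D3:**
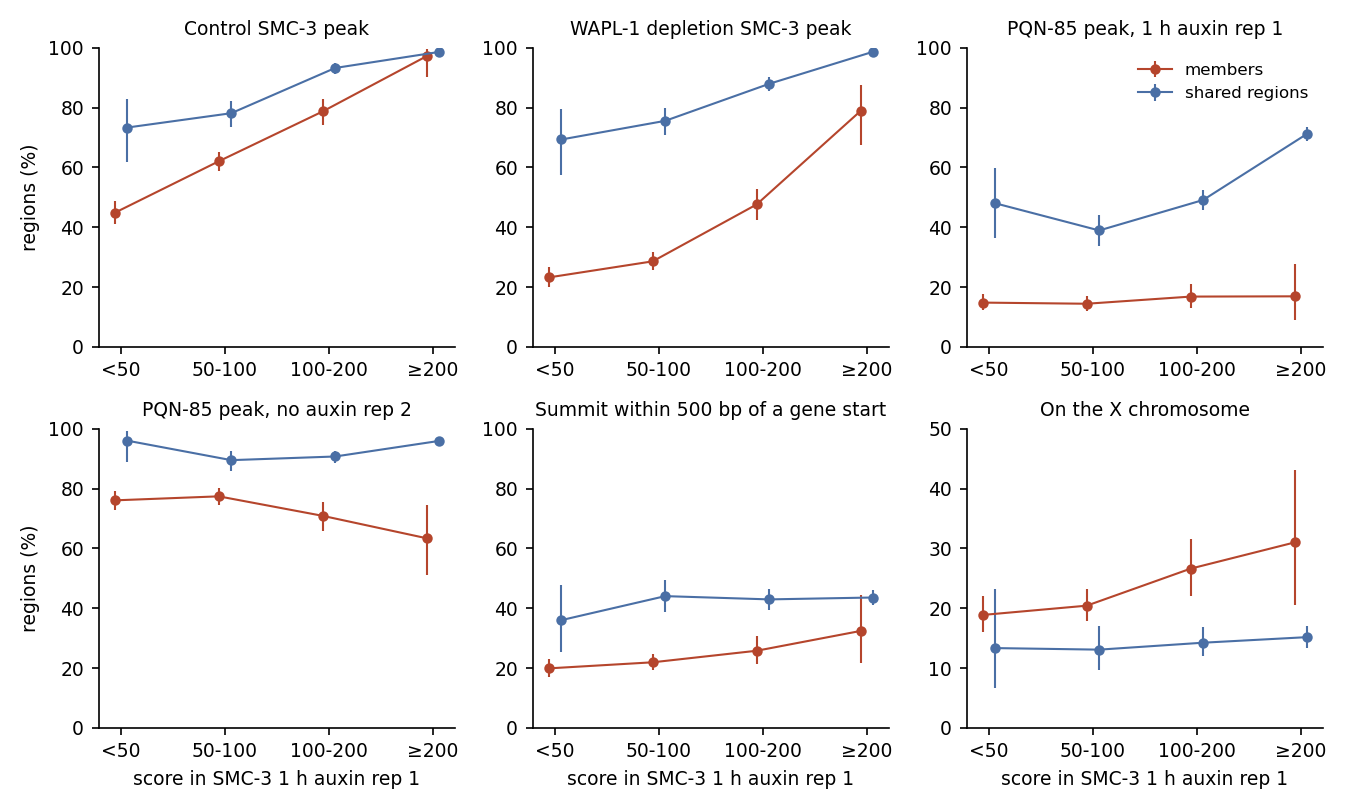
Share of members and shared regions (percent, y axis) with the feature named above each panel, in 4 bands of the score in SMC-3 replicate 1 labelled 1 h auxin (x axis), with exact 95% intervals over regions. Overlap with the control SMC-3 set climbs with score in members from 44.9% to 97.2%, while PQN-85 of auxin replicate 1 stays between 14.4% and 16.9% of members.

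The X chromosome held a larger share of members than of shared regions. It had 424 members (21.4%, 19.6 to 23.2) against 412 shared regions (14.6%, 13.3 to 15.9) and 17.8% of all peaks of the list, and makes up 17.7% of the span of the 6 chromosomes. Per Mb, X had 23.9 members and 23.3 shared regions. Autosomes had 13.6 (chromosome V) to 25.8 (chromosome III) members per Mb and 20.5 to 39.3 shared regions per Mb, with more shared regions than members on each. Of the peaks found in both lists labelled auxin, members made up 41.5% on X (38.5 to 44.6) and 30.6% to 32.7% on the 5 autosomes. Along X, 23.4% of members and 31.6% of shared regions lay in the central of 3 equal segments, and on autosomes 41.0% and 40.1% did.

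**Figure D4:**
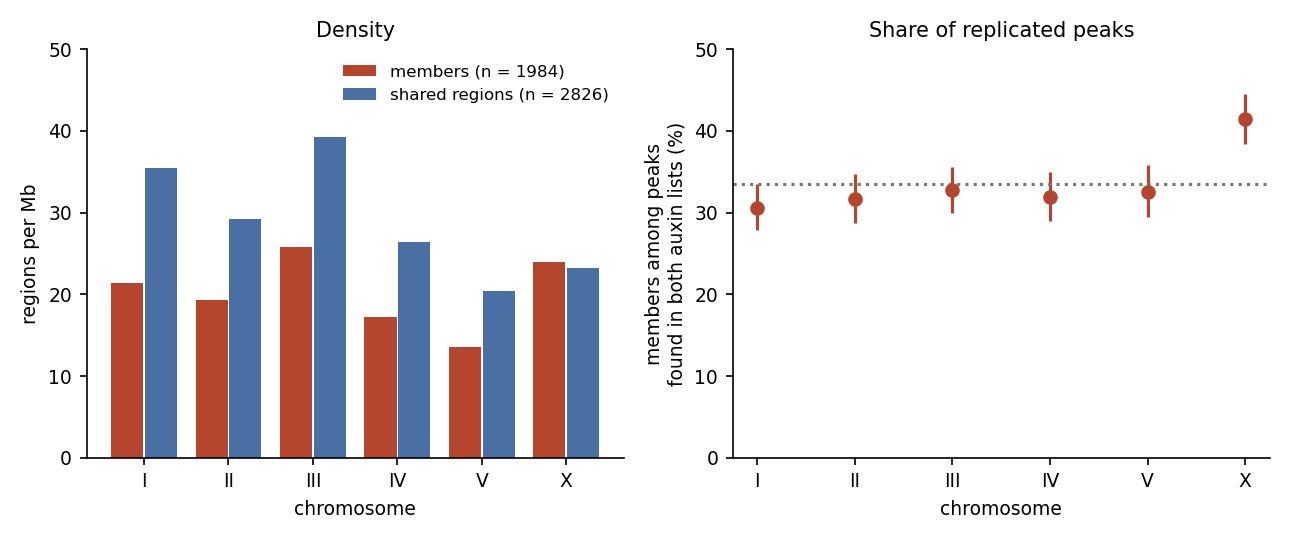
Members and shared regions per Mb of each chromosome (left, y axis) and members as a percentage of the peaks found in both lists labelled auxin (right, y axis, exact 95% intervals, dotted line at the 33.5% of all chromosomes). X had as many members (23.9 per Mb) as shared regions (23.3 per Mb) and the highest member percentage, 41.5%.

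Strong members on X lay mainly away from gene starts. Besides the site upstream of bet-2, they were from 16793033 to 16794185, 507 bp upstream of got-1.2, an aspartate aminotransferase gene, from 3091325 to 3093127 where the hedgehog-related gene wrt-2 and pccb-1 overlap, from 7656837 to 7658009 near F27D9.4 and from 5217966 to 5219635 near H28G03.3. At got-1.2 SMC-3 stood at 3.00-fold and 2.60-fold in the lists labelled auxin and 2.71-fold in the control. PQN-85 at this site was called at 2.55-fold in 1 auxin library, against 3.599-fold and 4.46-fold without auxin. It was present in the combined sets of JK06, JK05 and CA1200 at 4.05-fold, 3.34-fold and 3.85-fold. The sites at wrt-2 and F27D9.4 had no PQN-85 peak in any HW04 library or combined set. All 5 were control SMC-3 sites.

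PQN-85 calls were more frequent on X than on autosomes among members, and among shared regions in all sets but the control. PQN-85 overlapped 21.2% and 5.90% of X members with auxin against 55.9% and 83.3% without, and 13.4% and 3.85% of autosomal members with auxin against 43.5% and 73.1% without. The auxin difference was −56.0 percentage points on X and −49.7 on autosomes (exact permutation p = 0.333 each). A difference between X and autosomes in this response was not tested. Among shared regions it overlapped 73.1% and 29.1% on X with auxin against 94.9% and 97.1% without, and 57.9% and 16.9% on autosomes with auxin against 85.6% and 93.0% without. In WAPL-1 depletion the combined PQN-85 set covered 58.5% of X members and 40.1% of autosomal members, and 95.2% and 87.4% of shared regions. The SMC-3 depletion set covered 35.4% and 23.0% of members and 89.3% and 79.6% of shared regions. The control set covered 45.8% and 32.6% of members, but 69.7% of shared regions on X and 80.4% on autosomes.

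H4K20me1 at members did not move with auxin beyond the spread of its libraries. Its peaks overlapped 32.1% and 36.8% of members with auxin, against 31.5% and 34.4% without, a difference of 1.51 percentage points (two-sided exact permutation p = 0.667). The libraries overlapped, and without auxin replicate 2 the difference was −0.857. All peaks of the list gave 28.5% and 33.1% with auxin and 27.6% and 29.9% without. On X, 98.1% and 98.6% of members carried the mark with auxin, against 98.1% and 97.9% without. Shared regions on X were alike, at 98.1% and 99.0% with auxin and 98.5% and 98.1% without. On autosomes the mark covered 14.1% and 20.0% of members with auxin and 13.3% and 17.1% without. For autosomal shared regions the values were 13.8% and 18.5% with auxin and 14.1% and 15.3% without.

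Members lay away from gene starts more often than shared regions did. The summit was within 500 bp of a gene start at 442 members (22.3%, 20.5 to 24.2), against 1222 shared regions (43.2%, 41.4 to 45.1), 30.5% of all peaks of the list and 17.7% of all positions. Gene bodies held 34.1% of members and 22.0% of shared regions, intergenic positions 500 to 2000 bp from a start 17.5% and 16.6%, and those farther away 26.2% and 18.2%. The median distance to the nearest gene start was 1875.5 bp for members and 813.5 bp for shared regions. Of the summits within 500 bp of a start, 73.1% lay upstream of it among members and 87.6% among shared regions. On X the classes were closer, with 21.9% of members (18.1 to 26.2) and 29.6% of shared regions (25.2 to 34.3) near a start.

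**Figure D5:**
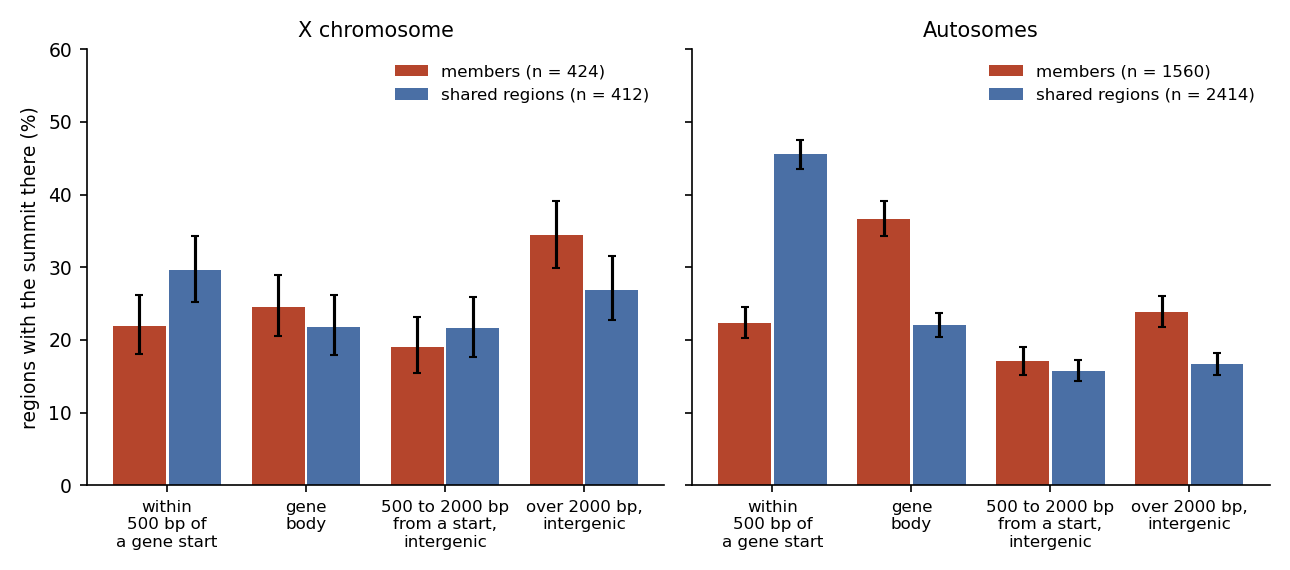
Share of members and shared regions (percent, y axis) by the position of the summit relative to genes (x axis), on X and on autosomes, with exact 95% intervals over regions. On autosomes 22.4% of members and 45.6% of shared regions lay within 500 bp of a gene start and 36.7% and 22.0% inside gene bodies, while on X the intervals of the classes overlap in each position.

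The strongest members near gene starts, besides those at cyn-16, T05D4.2 and sru-35, included 1 on chromosome III from 6164014 to 6165519, 47 bp upstream of F42A10.9. SMC-3 stood there at 3.24-fold and 2.64-fold in the lists labelled auxin, 1.97-fold in WAPL-1 depletion and 2.04-fold in the control. Inside genes, besides miz-1 and wrt-2, they lay on chromosome V from 19619980 to 19620451 inside Y43F8C.3, at 3.02-fold and 2.60-fold, and on chromosome III from 9695245 to 9695844 inside bud-31, whose yeast counterpart acts in splicing, at 2.78-fold and 2.19-fold. In the control set combined over replicates the bud-31 site stood at 3.71-fold, which is not a value of a single library.

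Between genes, strong members lay 718 bp upstream of vab-1, which encodes an Eph receptor of epidermal and neuronal morphogenesis (chromosome II from 4571050 to 4571607), and 502 bp upstream of emre-1, a gene of the mitochondrial calcium uniporter complex (X from 14978485 to 14979241). SMC-3 stood at 2.81-fold and 2.33-fold near vab-1 and at 2.66-fold and 2.77-fold near emre-1. Both had PQN-85 in both libraries without auxin and in neither with auxin, at 2.00-fold and 2.17-fold near vab-1 and 2.21-fold and 2.76-fold near emre-1. The member with the highest score, 682, lay on chromosome II from 8450244 to 8453383, 3227 bp from the start of F22B5.6. SMC-3 was enriched 4.36-fold and 2.66-fold there, and PQN-85 was called at 2.26-fold in 1 auxin library, against 2.52-fold and 4.45-fold without auxin. Next among distal sites after bet-2 was 1 near T20B12.4 on chromosome III from 7369279 to 7370318, with SMC-3 at 3.74-fold and 2.13-fold in the lists labelled auxin, 2.76-fold in WAPL-1 depletion and 3.33-fold in the control.

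Members had 1444 nearest genes. Gene classes are given by name prefix as counts without a test. Genes named unc-, for uncoordinated movement and many of them neuronal or muscular, were 24 of them (1.66%), against 37 of the 2463 nearest genes of shared regions (1.5%) and 0.5% of all genes in the tables. Examples were unc-64, the worm syntaxin gene, with a member inside the gene scoring 176, unc-132 with 143, and the ankyrin gene unc-44 and the kinesin gene unc-104 with 138 each. Ribosomal protein genes were 6 (0.416%), among them rps-25, rpl-11.1, rps-28 and rpl-19, against 41 (1.66%) at shared regions and 0.403% of all genes. No vha- gene (V-ATPase) was nearest to a member, against 8 (0.325%) at shared regions and 0.107% of all genes. Nuclear hormone receptor genes were 22 (1.52%), against 1.06% at shared regions and 1.4% of all genes. Chemoreceptor genes named str-, srh-, sri-, srx-, srw- or srz- were 9 (0.623%), against 0.365% and 3.22%. Other chemoreceptor prefixes, such as that of sru-35, were not counted.

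Homeobox genes of the ceh- class were 4 (0.277%, against 0.162% at shared regions and 0.339% of all genes), namely ceh-58, ceh-43, ceh-44 and ceh-13, the last being a Hox gene. Genes with the cuticle collagen and body shape prefixes col-, dpy-, rol-, sqt- or bli- were 8 (0.554%, against 0.528% at shared regions and 1.03% of all genes). The prefix alone decided, so not each of them need be a cuticle gene. C-type lectins were 3 (0.208%, against 0.244% and 1.12%) and heat shock genes 2 (0.139%, against 0.162% and 0.129%). There was 1 detoxification gene named cyp- or ugt- (0.0693%, against 0.162% and 0.763%) and 1 bHLH gene named hlh- (0.0693%, against 0.0812% and 0.113%). None of the 6 GATA factor genes (elt-) and not the 1 microRNA gene in the tables was nearest to a member or to a shared region. Of 20 listed genes of cohesin, its loader and selected transcription factors, 17 were in the tables, 2 were nearest to a member and 5 to a shared region. One was lin-39, a Hox gene of the midbody, with a member 7773 bp upstream on chromosome III from 7544141 to 7544526 that had PQN-85 in both libraries without auxin (1.92-fold and 2.25-fold) and in neither with auxin. The other was daf-16, the FOXO factor of insulin signalling, with a member inside the gene on chromosome I from 10761716 to 10762719, at a SMC-3 fold enrichment of 1.71 and 1.36 in the lists labelled auxin and 2.44 in the control.

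Transcripts of genes near members were mostly not called in the RNA tables of the depletion strains. In the authors' deposited table of SMC-3 depletion over CA1200, 7 of 1361 tested nearest genes (0.514%) had a DESeq2 adjusted p under 0.05, against 0.686% of all genes tested. Of these 1 was higher and 6 were lower, against 0.222% and 0.464% of all genes. An unadjusted p under 0.05 was found for 74 of the 1437 nearest genes listed there (5.15%), against 5.83% of all 18128 genes listed. Without SMC-3 replicate 2 labelled auxin, which enlarged the set, 11 genes were called. In the authors' deposited table of WAPL-1 depletion 0 of 1439 passed the DESeq2 adjusted p and 1 had an unadjusted p under 0.05, against 0% and 0.399% of all genes. Fewer cells and less RNA per cell cannot be told apart in whole worms. All RNA libraries had auxin, so a difference between the strains themselves and an effect of the depletion cannot be told apart either.

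Members nearest to the called genes had scores of 14 to 108, and C07A9.9, unc-119, Y39E4B.6 and Y43F8B.2 were also nearest to a shared region. Among genes nearest to members and to no shared region, 3 of 899 were called in the authors' deposited table (0.334%), against 5 of 2325 among genes nearest to shared regions (0.215%). In the authors' deposited table of SMC-3 depletion, unc-119, a neuronal gene, was higher by 2.46 ± 0.32 on the log2 scale (standard error, 2 libraries per strain, DESeq2 adjusted p = 1.11e-10), and its member inside the gene scored 34. The giant muscle protein gene ttn-1 stood at −2.34 ± 0.25 in the authors' deposited table, with an adjusted p listed as 0, and its member 1708 bp upstream of the start scored 45. The neuropeptide gene flp-19 stood at −1.20 ± 0.29 in the authors' deposited table (DESeq2 adjusted p = 0.00818), with a member scoring 17. The others lower in the authors' deposited table were Y43F8B.2 (−1.72 ± 0.40), ltah-1.2 (−1.36 ± 0.33), C07A9.9 (−1.35 ± 0.36) and Y39E4B.6 (−1.24 ± 0.28). Y43F8B.2 had 3 members, 2 of them with PQN-85 in all 4 HW04 libraries. With gene starts limited to 1000 bp from the summit, 1 of the 7 genes was left.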

How the data were processed

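Peak lists of the HW04 ChIP-seq libraries and of the strains CA1200, JK05 and JK06 and 2 RNA tables were used. Per the submitters' processing notes, ChIP-seq peaks involved MACS2 2.1.1 and MACS3, with deepTools 3.5.0, SAMtools 1.11 and Bowtie2 2.4.2, and RNA-seq DESeq2 1.30.0, HTSeq 0.13.5 and HISAT2 2.2.1. In the deposited peak lists the authors give each peak a score (10 times the −log10 q value), a fold enrichment (a ratio over input), −log10 p and −log10 q. Both deposited tables of RNA comparisons give a log2 fold change with its standard error, the p-value and adjusted p-value, and the mean normalized count (a signal without depth). The HW04 lists and 2 SMC-3 lists of JK06 are per library. The other 7 lists are sets over replicates. The number of sample columns left unused was 0.

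Regions were compared by overlaps of at least 1 bp. Shares carry exact Clopper-Pearson 95% intervals, and libraries were compared by two-sided exact permutation. Each region was assigned the gene of the RNA tables whose start was nearest to its summit. Gene ends in those tables differ from WBcel235 by a median of 6 to 64 bp per chromosome. No build of the HW04 lists is stated, and ce10 is stated for the control SMC-3 libraries. RefSeq names (WBcel235) matched 18230 of 18607 genes (98.0%). Shared coordinates of genes and peaks were assumed. Code for overlaps, region classes, gaps and nearest genes was tested on simulated peaks, and that of the exact tests and intervals was not. Python 3.11.15, pandas 2.3.3 and SciPy 1.17.1 were used.

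The members and lists were chosen with earlier results of these data known. Regions named are the 4 highest-scoring members of each gene position, 5 on X, 3 of each PQN-85 pattern, 3 without a control SMC-3 peak and 3 on each side of the overlap threshold. Genes named are their nearest genes, genes called in the RNA tables and a short list of cohesin and regulatory genes, plus examples of each name class. Sequences and Hi-C were not analysed here. Within a condition of HW04, same-numbered PQN-85 and H4K20me1 libraries name the same extract and input. Labels call the libraries replicates, and nothing ties a number to a culture shared between auxin and no auxin. P-values therefore measure the spread between these libraries.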

Additional observations from a re-analysis of the deposited data

How the results depend on the processing

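With peaks scoring at least 100 in the rule there were 920 members, with 90.9% at control SMC-3 peaks, 60.9% at control PQN-85 peaks, 71.6% at WAPL-1 depletion peaks, 29.7% near gene starts and 3 called genes. The condition from the peak names left 29 regions, with values of 44.8%, 13.8%, 69.0%, 27.6% and 0 called genes, 3.45% at SMC-3 depletion peaks, 10.3% on X, a PQN-85 auxin difference of 0.0 percentage points and 51.6 points between the drops at members and shared regions. That last difference, −0.149 points as reported, was 2.05 with summits inside the other peak, 0.841 with replicate 2 as the base list, 14.1 with list lengths matched and 4.85 at scores of 100 to 200. With matched lengths the PQN-85 auxin difference was 0.277. The score band, chosen after the data were seen, gave 78.7% at control SMC-3, 40.6% at control PQN-85, 47.6% at WAPL-1 depletion, 26.6% on X and 25.8% near gene starts. Other sets limited to a score of at least 100 gave 48.5%, 29.9% and 29.6% at control SMC-3, control PQN-85 and WAPL-1 depletion peaks, WAPL-1 depletion replicate 3 gave 45.6%, and regions widened by 250 bp gave 38.2% at control PQN-85. Gene starts within 250 and 1000 bp gave 16.2% and 33.9%. An unadjusted p under 0.05 gave 74 genes, and gene starts within 1000 bp gave 1. The causes were not tested.

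Leaving out 1 library at a time gave 2531 to 3794 members, PQN-85 auxin differences of −65.6 to −36.5, differences between the drops of −15.5 to 15.2, H4K20me1 differences of −0.857 to 3.88, 43.7% to 65.3% at control SMC-3, 24.5% to 41.0% at control PQN-85, 26.7% to 39.0% at WAPL-1 depletion, 0.132% to 0.781% at SMC-3 depletion, 19.4% to 21.3% on X, 20.7% to 24.4% near gene starts and 8 to 11 called genes. Between auxin and no auxin, the numbers pair no samples known to share an extract. With the replicate number as a replicate block the PQN-85 difference was −51.0 (exact sign-flip p = 0.5). That between the drops was −0.149 (exact sign-flip p = 1.0) and that of H4K20me1 1.51 (exact sign-flip p = 0.5). The smallest p that 2 pairs allow is 0.5, so no call under 0.05 was possible. Same-numbered libraries deviated together with correlations over regions of 0.129 for PQN-85 and 0.136 for H4K20me1. Of 128 alternative values, 13 changed sign or fell to 0 and 47 shares or counts moved beyond the interval or by over 1.5 times. The other 68 kept their sign or, as shares and counts, stayed within these limits. Differences between libraries among them changed in size, that between the drops to −15.0 with scores of at least 100 in the rule. The exact tests could not reach a p under 0.05 in any setting. Peak lists without counts limit every share to what each list's length and threshold let through.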

Other observations

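Members often lay close to each other. The nearest other member was a median of 4588.5 bp away, and 1039 members (52.4%) had another within 5 kb, while the nearest shared region lay a median of 5468 bp from a member. Shared regions were a median of 8268 bp from their nearest other shared region. Of the 1444 nearest genes, 347 had at least 2 members, and 486 were also nearest to a shared region, which is 33.7% of the members' genes and 19.7% of the shared regions' genes.

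The genes with the most members, named after these counts were seen, were F53H2.3 on chromosome V with 8 and crh-1, the worm CREB gene, on chromosome III with 6. Another 17 genes had 5 members each. They included apl-1, the gene related to the amyloid precursor protein, on X, tra-1, the GLI-type factor of sex determination, on chromosome III, the calcineurin gene tax-6 on chromosome IV, and the phosphodiesterase gene pde-4 on chromosome II. Gene length and the distance between genes were not adjusted for.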
